A study of Mus musculus with 8 samples.

Results

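The 54 genes described here are ligands, receptors and modulators of the Wnt pathway, measured in mouse embryonic fibroblasts (MEF cells). They were taken by gene symbol from a table of 23281 genes, with the transcripts of a gene summed, and all 54 were listed. The study sequenced mRNA from 8 libraries in 4 groups of 2, all of strain C57BL/6 and grown in the same serum-containing medium. The groups were 2 clones carrying Taf4 -/- with a stable human TAF4 transgene that lacks the TAFH domain (TAFH-deleted rescue clones), and 2 clones carrying Taf4 -/- with a wild-type human TAF4 transgene (wild-type rescue clones). The others were 2 libraries of Taf4 -/- cells without a transgene (knockout) and 2 libraries of Taf4 loxp/- cells (control). Every group thus carries at least 1 deleted Taf4 allele, also the controls, which other labels call wild type. TAF4 belongs to TFIID, the complex that positions RNA polymerase II at promoters, and the title of the study names a coactivator function of TAF4 for E proteins, which are basic helix-loop-helix transcription factors. The sources used here give no promoter for the transgenes and do not say whether clones or libraries came from separate derivations, and the p-values below cover nothing beyond how far these samples vary.

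Wnt proteins are secreted, lipid-modified ligands that bind Frizzled receptors together with the co-receptors Lrp5 or Lrp6. Binding spares beta-catenin (Ctnnb1) from a destruction complex built on Axin and Apc, and beta-catenin then acts with TCF/LEF factors on target genes, while other Wnts signal through Ror receptors without beta-catenin. R-spondins strengthen the signal by keeping the ubiquitin ligases Znrf3 and Rnf43 from removing Frizzleds, and secreted proteins of the Sfrp and Dkk families hold it back. In mesenchymal cells the pathway is known for its part in growth, skeletal patterning and matrix production.

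Levels are in FPKM, sequenced fragments divided by transcript length in kilobases and by library size, which allows genes to be compared per length. The low values of the table gave implied totals of 1.43e+07 to 1.73e+07 fragments per library. Within the control pair and within the knockout pair the libraries differed by less than sampling noise, and each of these pairs was averaged and counted as 1 sample. The spread in every test therefore came from the rescue clones alone. Mouse Taf4 (listed as Taf4a, chromosome 2) was at 14.7 and 19.2 FPKM in TAFH-deleted clones, 14.5 and 15.0 FPKM in wild-type rescue clones, 12.5 and 12.4 FPKM in knockout and 11.1 and 11.5 FPKM in control libraries. The deleted exons are not given in the sources used here, and this level is therefore no check of the genotypes. Of 10 fibroblast markers 9 reached 1 FPKM, with Thy1 at or near 0. Their summed level was 842 to 983 FPKM in TAFH-deleted clones, 946 to 965 FPKM in wild-type rescue clones, 978 to 980 FPKM in knockout and 960 to 961 FPKM in control libraries. For abundant genes, reads can fill a large part of the positions at which a read can start, as described further below. How far this held for these markers was not tested, so the sum is no measure of even expression. No epithelial, endothelial, skeletal muscle or pluripotent cell marker reached 1 FPKM, and of 6 blood cell markers only Cd68 did. Of 6 neural markers 3 did (Sox2, Nes and Tubb3), with Gfap and Olig2 at or near 0. The summed neural list was 11.4 to 29.0 FPKM in TAFH-deleted clones, 18 to 19.3 FPKM in wild-type rescue clones, 15.7 to 16.5 FPKM in knockout and 32.0 to 34.9 FPKM in control libraries, and its part in the results was not tested. Its members did not run together: between the rescue forms Tubb3 was called lower in TAFH-deleted clones (log2 difference -1.93 ± 0.24, adjusted p = 0.0497, limma), and Nes differed by 1.91 ± 0.26 without passing (adjusted p = 0.0544, limma). In such bulk samples, fewer cells of a type and less RNA per cell cannot be told apart.

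Of the 54 genes, 38 reached 1 FPKM in at least 2 libraries and were tested. The other 16 were Wnt2, Wnt2b, Wnt4, Wnt5b, Wnt6, Wnt7b, Wnt16, Fzd9, Fzd10, Sfrp4, Dkk1, Rspo4, Lgr5, Wif1, Nkd1 and Nkd2. None of these 16 exceeded 1.55 FPKM, and Fzd10 and Rspo4 were listed at 0 in every library. Among the tested genes, 10 were over 20 FPKM in every library. By the mean of the 4 group means, the highest level belonged to the secreted Frizzled-related protein Sfrp2 (107 FPKM), followed by Ctnnb1 (99.4 FPKM) and the matricellular gene Wisp2 (86.8 FPKM). In their highest libraries, reads of these genes filled 88.2%, 74.0% and 80.9% of the positions open to them. Their order is therefore no measure of abundance. Dkk3 stood at 48.3 FPKM, Fzd2 at 44.1 FPKM and the ligand Wnt5a at 38.7 FPKM. The genes differed widely in how steady they were. In Rspo3 the highest library was 103 times the lowest, in Lef1 14.4 times, in Tcf7 14.2 times, and in Rspo2 and Sfrp1 11.5 times. In 15 of the 38 that ratio was over 3. At the other end, Kremen1, a receptor for Dkk proteins, spanned a ratio of 1.14 and Lrp6 one of 1.21, with Ctnnb1 at 1.26, Tcf7l2 at 1.3 and Axin1 at 1.31. For Ctnnb1 the span is no measure of steadiness, since its reads filled 70.1% to 74.0% of the positions open to them in every library.

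**Figure D1:**
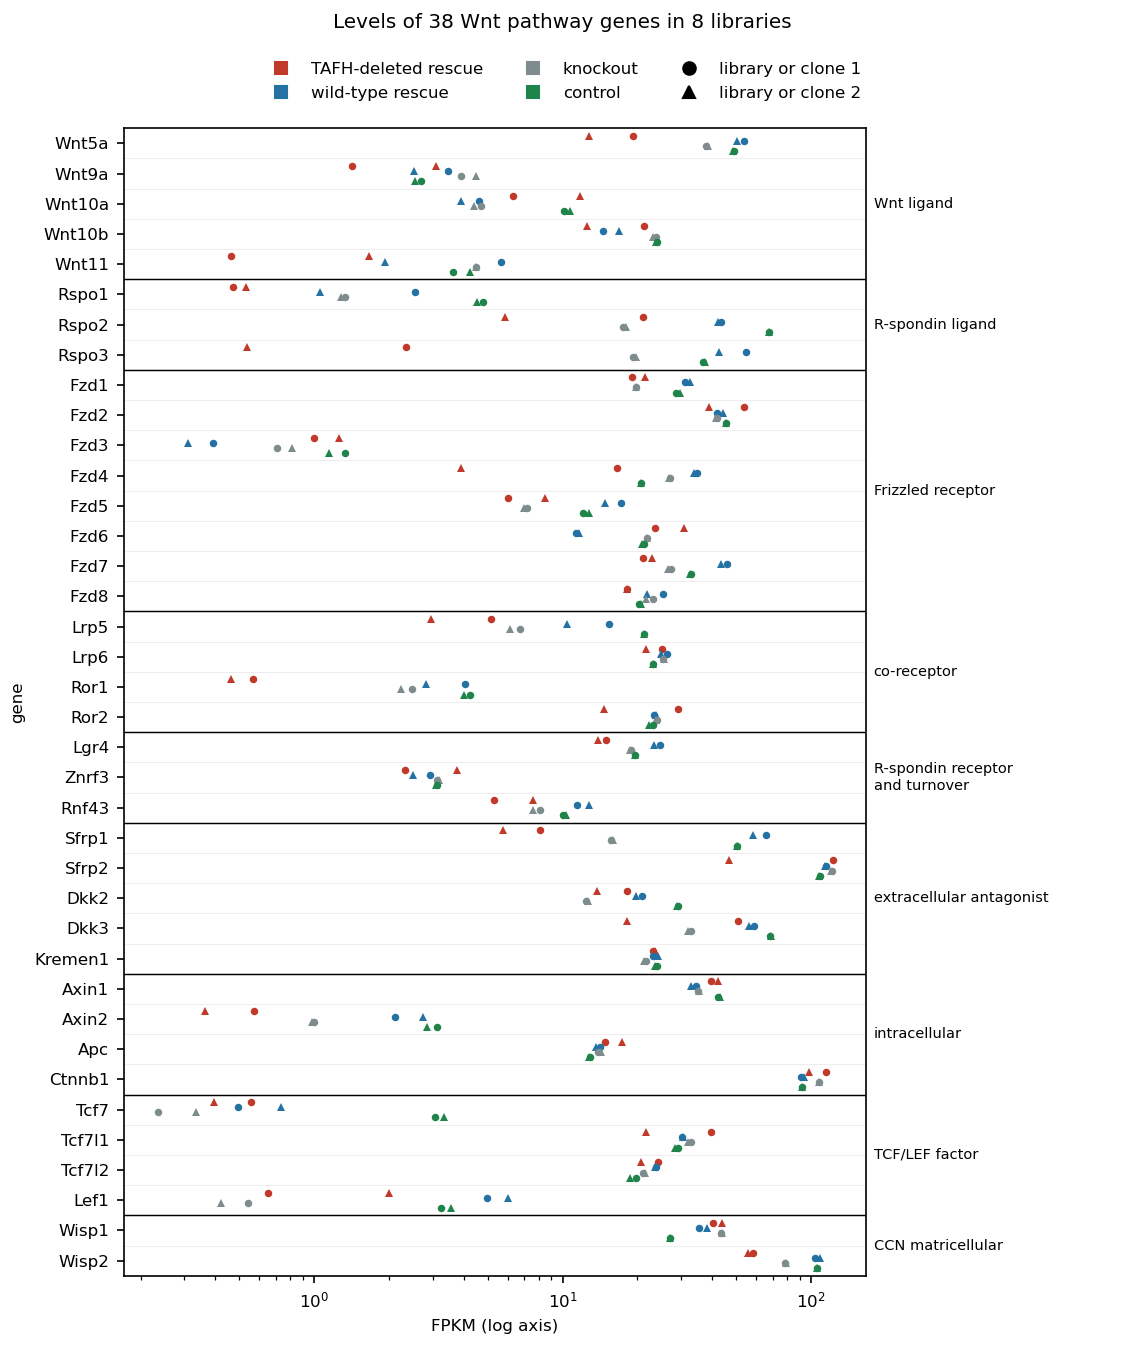
Level of each of the 38 tested Wnt pathway genes in each library, as FPKM on a log axis, with genes in rows by role and 1 point per library coloured by group. The points of Rspo3 spread farthest, between 0.534 and 54.8 FPKM, while those of Kremen1, Lrp6 and Ctnnb1 lie almost on top of each other.

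Between the rescue forms, 5 Wnt pathway genes were called, and all 5 were lower in the TAFH-deleted clones: the R-spondin Rspo3, the antagonist Sfrp1, the ligand Wnt5a, the receptor Fzd7 and the matricellular Wisp2. These are 13.2% of the 38 tested, against 2.62% of all 12025 genes tested that were called in either direction and 1.69% called lower, and none was called higher, against 0.931% of all genes. Calls are from limma on log2(FPKM + 1) with Benjamini-Hochberg adjustment over all genes at 0.05, and every difference below is on that log2 scale, which understates the change of low genes. At least 2-fold lower in TAFH-deleted than in wild-type rescue clones were 11 of the 38 (28.9%, against 5.94% of all genes): Wnt5a, Wnt11, Fzd4, Fzd5, Sfrp1, Rspo2, Rspo3, Lrp5, Axin2, Lef1 and Ror1. At least 2-fold higher was 1 (Fzd6), against 2.6% of all genes. In all, 28 of the 38 differences were negative and 10 positive, with a median of -0.47 against 0.06 over all genes tested. That median was -0.27 without TAFH-deleted clone 2 and -0.58 without clone 1. The values of the clones did not overlap in 20 genes that were lower and 7 that were higher, against 26.4% and 37.1% of all genes, and they overlapped in 11. An unadjusted p under 0.05 was reached by 19 of the 38, or 50%, against 28.8% of all genes. When a rescue clone was left out, the spread came from the other rescue pair alone. The calls were not kept without either wild-type rescue clone, here and over all genes, in fits whose spread came from the TAFH-deleted pair. Leaving out TAFH-deleted clone 1 gave 26 calls (68.4%), against 55.9% of all genes called in that fit, and leaving out TAFH-deleted clone 2 gave 25 (65.8%), against 40.0% of all genes.

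**Figure D2:**
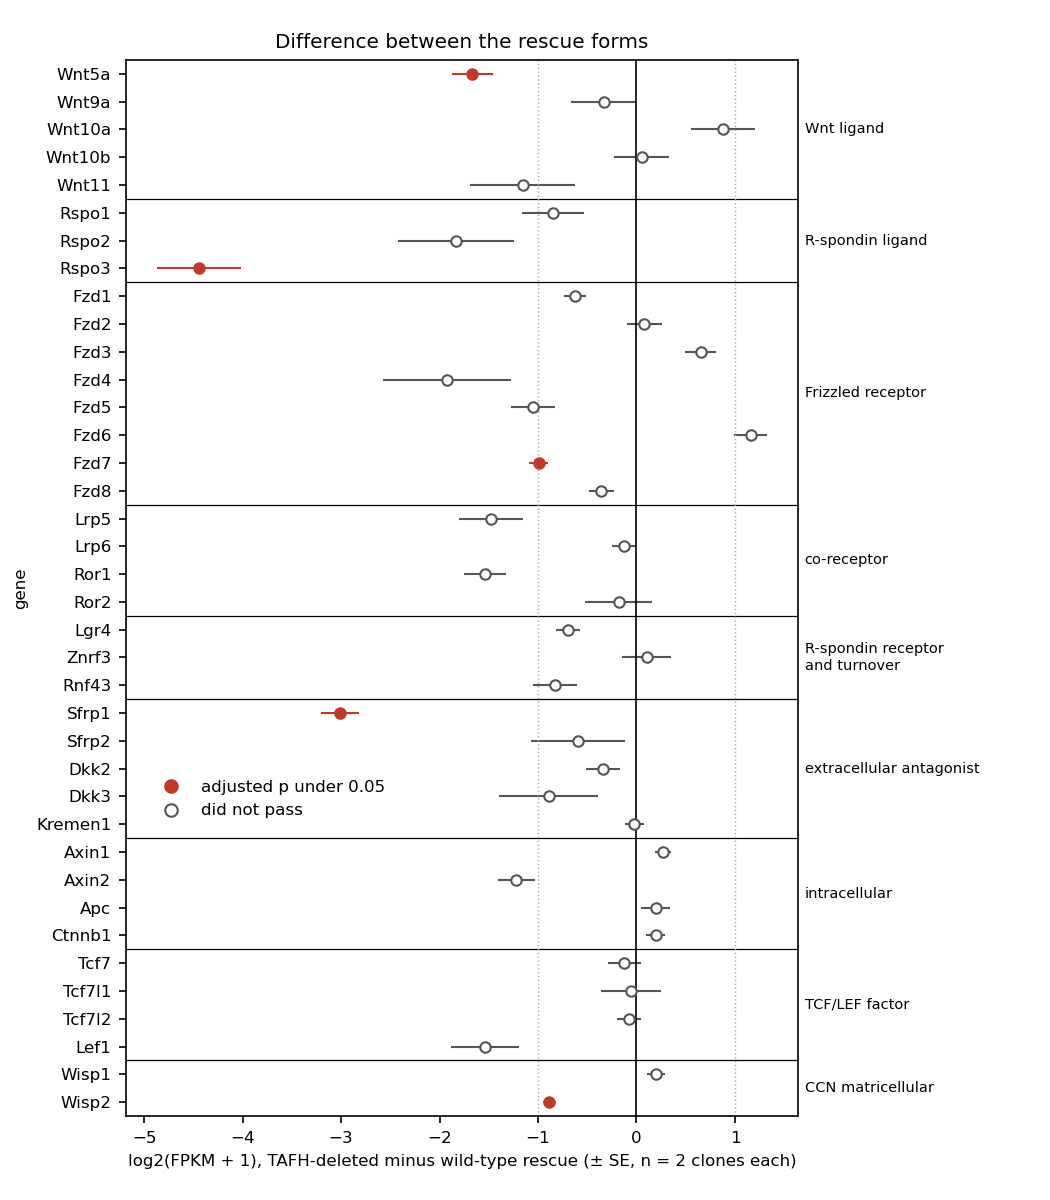
Difference between TAFH-deleted and wild-type rescue clones for the 38 tested Wnt pathway genes, as log2(FPKM + 1) with its SE, in rows by role. Differences lie between -4.45 for Rspo3 and 1.16 for Fzd6, and the 5 called genes are all on the lower side.

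Of the 12 Wnt ligands, 5 were tested, and Wnt5a was the only one called between the rescue forms. Wnt5a (chr14:29318659-29338701, mm9), best known for signalling through Ror receptors without beta-catenin, was at 19.2 and 12.8 FPKM in TAFH-deleted clones, 53.6 and 50.4 FPKM in wild-type rescue clones, 37.7 and 38.6 FPKM in knockout and 48.9 and 48.3 FPKM in control libraries. Both TAFH-deleted clones lay below the 6 other libraries. Wnt5a fell in TAFH-deleted against wild-type rescue clones, with a log2 difference of -1.67 ± 0.21 (SE; adjusted p = 0.0497, limma), and this was the call nearest the threshold. Both listed transcripts of Wnt5a were lower in the TAFH-deleted clones, the longer at 7.21 and 4.56 FPKM against 27.6 and 20.7 FPKM in wild-type rescue clones, and the shorter at 12 and 8.22 FPKM against 26.0 and 29.7 FPKM. Against knockout, the log2 difference of Wnt5a in TAFH-deleted clones was -1.23 ± 0.26, which did not pass (adjusted p = 0.622, limma).

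Wnt10a (chr1:74838593-74850749, mm9), a ligand of the beta-catenin branch, was at 6.30 and 11.7 FPKM in TAFH-deleted clones, 4.60 and 3.90 FPKM in wild-type rescue clones, 4.69 and 4.38 FPKM in knockout and 10.1 and 10.7 FPKM in control libraries. TAFH-deleted clone 2 was at the level of the controls, and the wild-type rescue clones were at that of the knockout. Its log2 difference was -1.05 ± 0.46 in knockout against control and 0.88 ± 0.33 in TAFH-deleted against wild-type rescue clones, and neither passed. Wnt10b, known for its role in bone and fat precursors, had group means of 16.8 FPKM in TAFH-deleted clones, 15.7 FPKM in wild-type rescue clones, 23.4 FPKM in knockout and 23.8 FPKM in control libraries. Wnt11 and Wnt9a stayed at or under 5.62 FPKM in every library.

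The difference farthest from 0 in the whole list was that of an R-spondin. Rspo3 (chr10:29172913-29255673, mm9) was at 2.33 and 0.534 FPKM in TAFH-deleted clones, 54.8 and 42.5 FPKM in wild-type rescue clones, 19.2 and 19.7 FPKM in knockout and 36.7 and 37.5 FPKM in control libraries. The 4 groups did not overlap, and the TAFH-deleted clones were lowest, below the knockout libraries, which carry no transgene. The log2 difference in TAFH-deleted against wild-type rescue clones was -4.45 ± 0.43 (SE; adjusted p = 0.0423, limma). The values in TAFH-deleted clones rest on 73 and 19 recovered fragments, against 2050 and 1577 in wild-type rescue clones. Against knockout the log2 difference of Rspo3 in TAFH-deleted clones was -3.18 ± 0.52 (adjusted p = 0.565, limma), which did not pass in a fit that called no gene for that comparison.

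Rspo2 (chr15:42852341-43002364, mm9) was at 21.1 and 5.87 FPKM in TAFH-deleted clones, 43.5 and 42.1 FPKM in wild-type rescue clones, 17.5 and 18 FPKM in knockout and 67.5 and 67.6 FPKM in control libraries. The knockout libraries lay between the 2 TAFH-deleted clones, and the controls were highest. For Rspo2 the log2 difference was -1.87 ± 0.84 in knockout against control (adjusted p = 0.598, limma) and -1.83 ± 0.59 in TAFH-deleted against wild-type rescue clones (adjusted p = 0.145, limma). Rspo1 was lower than both, with group means of 0.501 FPKM in TAFH-deleted clones, 1.8 FPKM in wild-type rescue clones, 1.31 FPKM in knockout and 4.65 FPKM in control libraries. All 3 tested R-spondins had a negative difference in TAFH-deleted against wild-type rescue clones and in knockout against control, and a positive one in wild-type rescue clones against knockout. These comparisons share samples, so the signs are not independent of each other.

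Of the 10 Frizzled receptors 8 were tested, of which Fzd7 was called, with 5 negative and 3 positive differences in TAFH-deleted against wild-type rescue clones. Promoters of Fzd4, Fzd5 and Fzd7 are shown because these receptors were about 2-fold or more lower in TAFH-deleted than in wild-type rescue clones and each has a single start in the promoter table. The windows are the 250 bases before the RefSeq start on GRCm38.p6, 5′ to 3′ on the gene's strand, with capitals where a script found CANNTG (the E-box, the motif that E proteins bind) or CTTTGA or CTTTGT (core letters of TCF/LEF sites) on either strand. Fzd4 is chr7:89404116-89404365 on the plus strand, Fzd5 is chr1:64737751-64738000 on the minus strand and Fzd7 is chr1:59481897-59482146 on the plus strand.
Fzd4: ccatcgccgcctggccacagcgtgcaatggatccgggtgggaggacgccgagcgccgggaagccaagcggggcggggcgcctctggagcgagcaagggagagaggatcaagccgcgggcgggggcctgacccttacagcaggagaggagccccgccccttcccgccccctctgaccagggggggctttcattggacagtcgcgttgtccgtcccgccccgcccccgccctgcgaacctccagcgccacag
Fzd5: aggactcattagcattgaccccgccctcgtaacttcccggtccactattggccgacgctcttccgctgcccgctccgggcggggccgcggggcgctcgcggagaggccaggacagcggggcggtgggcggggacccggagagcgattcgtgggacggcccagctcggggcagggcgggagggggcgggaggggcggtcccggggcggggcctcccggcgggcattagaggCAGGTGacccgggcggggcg
Fzd7: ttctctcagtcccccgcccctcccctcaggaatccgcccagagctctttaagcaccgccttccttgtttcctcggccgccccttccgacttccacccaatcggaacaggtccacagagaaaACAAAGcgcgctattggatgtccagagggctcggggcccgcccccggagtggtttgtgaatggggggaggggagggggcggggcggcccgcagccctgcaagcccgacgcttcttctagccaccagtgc
The Fzd5 window held 1 E-box, CAGGTG, close to the start, the Fzd7 window held 1 CTTTGT on the opposite strand, and the Fzd4 window held none of the letters searched. Over the list, 33 of the 54 genes matched the table, with 43 windows. CANNTG was in 53.5% of these, against 66.2% of all 32536 windows of the same length. CAGGTG, which is one form of CANNTG, was in 18.6% against 17.3%, CTTTGA in 14% against 13.9% and CTTTGT in 18.6% against 16.5%. A match describes letters and is not a binding site.

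Fzd7 (chr1:59538991-59543799, mm9), a receptor that serves both Wnt branches, was at 21.0 and 23.0 FPKM in TAFH-deleted clones, 45.9 and 43.5 FPKM in wild-type rescue clones, 27.4 and 26.6 FPKM in knockout and 32.9 and 32.5 FPKM in control libraries. The groups did not overlap, and the wild-type rescue clones were above the controls. It fell in TAFH-deleted against wild-type rescue clones, with a log2 difference of -0.99 ± 0.10 (SE; adjusted p = 0.0426, limma). In wild-type rescue clones against knockout the log2 difference of Fzd7 was 0.71 ± 0.12, which did not pass (adjusted p = 0.231, limma).

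Fzd4 (chr7:96552876-96558620, mm9), which is also the receptor for norrin, was at 16.6 and 3.91 FPKM in TAFH-deleted clones, 34.9 and 33.6 FPKM in wild-type rescue clones, 26.9 and 26.7 FPKM in knockout and 20.6 and 20.8 FPKM in control libraries. Both TAFH-deleted clones were below every other library, but they differed 4.25-fold from each other. The log2 difference to wild-type rescue clones, -1.92 ± 0.65, did not pass (adjusted p = 0.155, limma). Fzd5 (chr1:64777132-64784324, mm9) was at 6.02 and 8.49 FPKM in TAFH-deleted clones, 17.1 and 14.8 FPKM in wild-type rescue clones, 7.16 and 7.0 FPKM in knockout and 12.1 and 12.8 FPKM in control libraries. The knockout values lay between those of the TAFH-deleted clones, and the wild-type rescue clones were highest. Its log2 difference was -1.05 ± 0.22 in TAFH-deleted against wild-type rescue clones (adjusted p = 0.0818, limma) and 1.06 ± 0.27 in wild-type rescue clones against knockout (adjusted p = 0.31, limma). The 2 listed transcripts of Fzd5 went opposite ways between the rescue forms. The longer was lower in TAFH-deleted clones, at 1.977 and 5.162 FPKM against 13.97 and 14.74 FPKM in wild-type rescue clones. The shorter was higher in TAFH-deleted clones, at 4.041 and 3.327 FPKM against 3.166 and 0.01327 FPKM. The lower sum in TAFH-deleted clones thus came from the longer transcript alone.

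Fzd6 (chr15:38837826-38869736, mm9), a receptor known for planar cell polarity, was at 23.5 and 30.7 FPKM in TAFH-deleted clones, 11.3 and 11.6 FPKM in wild-type rescue clones, 21.8 and 21.9 FPKM in knockout and 21.3 and 21.0 FPKM in control libraries. The wild-type rescue clones stood alone at the low end. Knockout and control libraries were close together, and both TAFH-deleted clones were above them. The log2 difference of Fzd6 was 1.16 ± 0.17 in TAFH-deleted against wild-type rescue clones (adjusted p = 0.0591, limma) and -0.87 ± 0.21 in wild-type rescue clones against knockout (adjusted p = 0.293, limma). Fzd2, the Frizzled with the highest mean of the 4 group means though below Fzd7 in wild-type rescue clones, had group means of 46.2 FPKM in TAFH-deleted clones, 43.1 FPKM in wild-type rescue clones, 41.5 FPKM in knockout and 45.5 FPKM in control libraries. Fzd1 had means of 20.3 FPKM in TAFH-deleted and 31.9 FPKM in wild-type rescue clones (log2 difference -0.63, adjusted p = 0.0694, limma). Fzd8 stayed between 18.1 and 25.3 FPKM, and Fzd3 did not exceed 1.33 FPKM in any library.

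Among the co-receptors, Lrp5 and Ror1 were at least 2-fold lower in TAFH-deleted than in wild-type rescue clones, while Lrp6 and Ror2 were not. Lrp5 (chr19:3584825-3686564, mm9), which with Lrp6 carries the beta-catenin branch, was at 5.15 and 2.94 FPKM in TAFH-deleted clones, 15.4 and 10.4 FPKM in wild-type rescue clones, 6.76 and 6.13 FPKM in knockout and 21.3 and 21.2 FPKM in control libraries. The 4 groups did not overlap and the controls were highest. Its log2 difference was -1.58 ± 0.46 in knockout against control (adjusted p = 0.478, limma) and -1.47 ± 0.33 in TAFH-deleted against wild-type rescue clones (adjusted p = 0.0864, limma). Lrp6, its close relative, kept between 21.7 and 26.3 FPKM in all 8 libraries. Ror1, a receptor for Wnt5a, had group means of 0.514 FPKM in TAFH-deleted clones, 3.44 FPKM in wild-type rescue clones, 2.35 FPKM in knockout and 4.13 FPKM in control libraries, with a log2 difference of -1.54 ± 0.21 between the rescue forms (adjusted p = 0.0552, limma). Ror2, its paralog, had a mean of 21.8 FPKM in TAFH-deleted and 23.5 FPKM in wild-type rescue clones, with 29.0 FPKM in TAFH-deleted clone 1 and 14.7 FPKM in clone 2.

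None of the 3 tested genes of R-spondin reception and Frizzled turnover passed. Lgr4, an R-spondin receptor, averaged 14.4 FPKM in TAFH-deleted and 23.9 FPKM in wild-type rescue clones (log2 difference -0.69 ± 0.12, adjusted p = 0.0675, limma). Rnf43 averaged 6.43 FPKM in TAFH-deleted and 12.1 FPKM in wild-type rescue clones (log2 difference -0.83, adjusted p = 0.111, limma). Znrf3, the other ligase, kept between 2.32 and 3.74 FPKM in all libraries.

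Of the 5 tested genes listed as extracellular antagonists, only Sfrp1 was called between the rescue forms. Their log2 differences in TAFH-deleted against wild-type rescue clones ran from -3.01 for Sfrp1 to -0.02 ± 0.10 for Kremen1. Sfrp2 differed from the wild-type rescue mean by 0.09 in TAFH-deleted clone 1 and by -1.28 in clone 2. Sfrp1 (chr8:24521974-24560104, mm9), a secreted protein with a Frizzled-like domain that binds Wnts, was at 8.11 and 5.73 FPKM in TAFH-deleted clones, 66.0 and 58.4 FPKM in wild-type rescue clones, 15.6 and 15.9 FPKM in knockout and 50.4 and 50.2 FPKM in control libraries. The groups did not overlap, with the wild-type rescue clones above the controls and the TAFH-deleted clones below the knockout. Sfrp1 fell in TAFH-deleted against wild-type rescue clones by 3.01 ± 0.19 on the log2 scale (SE; adjusted p = 0.0364, limma), the lowest adjusted p of the list. Its log2 difference was 1.91 ± 0.23 in wild-type rescue clones against knockout (adjusted p = 0.207, limma), -1.10 ± 0.23 in TAFH-deleted clones against knockout (adjusted p = 0.631, limma) and -1.62 ± 0.27 in knockout against control (adjusted p = 0.246, limma).

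Dkk2 (chr3:131748256-131843268, mm9), a ligand of Lrp co-receptors, was at 18.2 and 13.8 FPKM in TAFH-deleted clones, 20.9 and 19.8 FPKM in wild-type rescue clones, 12.4 and 12.6 FPKM in knockout and 29.1 and 28.8 FPKM in control libraries. The groups kept apart, with knockout lowest and control highest. Its log2 difference in knockout against control was -1.15 ± 0.25 (adjusted p = 0.349, limma). Dkk3 (chr7:119259533-119302571, mm9), a divergent member of the family, was at 50.8 and 18.2 FPKM in TAFH-deleted clones, 58.9 and 56.1 FPKM in wild-type rescue clones, 32.8 and 32.0 FPKM in knockout and 68.6 and 69.0 FPKM in control libraries. The TAFH-deleted clones lay on either side of the knockout, whose log2 difference to control was -1.06 ± 0.71 (adjusted p = 0.679, limma). Sfrp2 was between 108 and 122 FPKM in 7 libraries and at 46.6 FPKM in TAFH-deleted clone 2. Kremen1 had group means of 23.3 FPKM in TAFH-deleted clones, 23.7 FPKM in wild-type rescue clones, 21.5 FPKM in knockout and 23.8 FPKM in control libraries.

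Inside the cell, Ctnnb1, Apc and Axin1 spanned narrow ranges, and Axin2 and the TCF/LEF factor Lef1 spanned wider ones. No gene of these roles was called between the rescue forms. Ctnnb1 averaged 106 FPKM in TAFH-deleted clones, 92.2 FPKM in wild-type rescue clones, 107 FPKM in knockout and 92.0 FPKM in control libraries. Apc stayed between 12.8 and 17.3 FPKM and Axin1 between 32.9 and 43.1 FPKM. Axin2, a scaffold and a common target of the pathway, averaged 0.468 FPKM in TAFH-deleted clones, 2.43 FPKM in wild-type rescue clones, 0.991 FPKM in knockout and 2.98 FPKM in control libraries (log2 difference between the rescue forms -1.22 ± 0.19, adjusted p = 0.0615, limma). Lef1 (chr3:130813389-130926249, mm9) was at 0.653 and 2.00 FPKM in TAFH-deleted clones, 4.94 and 6.04 FPKM in wild-type rescue clones, 0.540 and 0.420 FPKM in knockout and 3.24 and 3.57 FPKM in control libraries. Wild-type rescue clones were above the controls, and both TAFH-deleted and knockout libraries were at or under 2.00 FPKM. For Lef1 the log2 difference was -1.54 ± 0.35 in TAFH-deleted against wild-type rescue clones (adjusted p = 0.0894, limma), 2.13 ± 0.43 in wild-type rescue clones against knockout (adjusted p = 0.262, limma) and -1.57 ± 0.49 in knockout against control (adjusted p = 0.503, limma).

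Tcf7, a partner of beta-catenin like Lef1, had another order of groups. It averaged 0.476 FPKM in TAFH-deleted clones, 0.612 FPKM in wild-type rescue clones, 0.284 FPKM in knockout and 3.19 FPKM in control libraries, so that the wild-type rescue clones did not share the level of the controls. Its log2 difference in knockout against control was -1.71 ± 0.24, and its adjusted p of 0.189 (limma) was the lowest of the list in that comparison. Tcf7 passed the filter on low values only through the control libraries. That it was lower in knockout was thus fixed in advance. Tcf7l1 and Tcf7l2, which often act as repressors, averaged 30.6 and 22.5 FPKM in TAFH-deleted clones and 30.4 and 23.7 FPKM in wild-type rescue clones.

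Wisp2 (chr2:163646570-163658883, mm9), a secreted CCN protein that is induced by Wnt signals in other cells, was at 58.4 and 55.6 FPKM in TAFH-deleted clones, 104 and 108 FPKM in wild-type rescue clones, 78.8 and 79.4 FPKM in knockout and 105 and 105 FPKM in control libraries. Wild-type rescue clones and controls were at one level, with knockout below them and the TAFH-deleted clones lowest. Reads of Wisp2 filled 78.5% and 80.9% of the positions open to them in wild-type rescue clones, and 80.4% and 80.6% in control libraries. The shared level is therefore no measure of equal expression. Wisp2 fell in TAFH-deleted against wild-type rescue clones, with a log2 difference of -0.88 ± 0.06 (SE; adjusted p = 0.0366, limma). Its relative Wisp1 averaged 42.1 FPKM in TAFH-deleted clones, 36.6 FPKM in wild-type rescue clones, 43.7 FPKM in knockout and 27.0 FPKM in control libraries, and none of its differences passed.

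**Figure D3:**
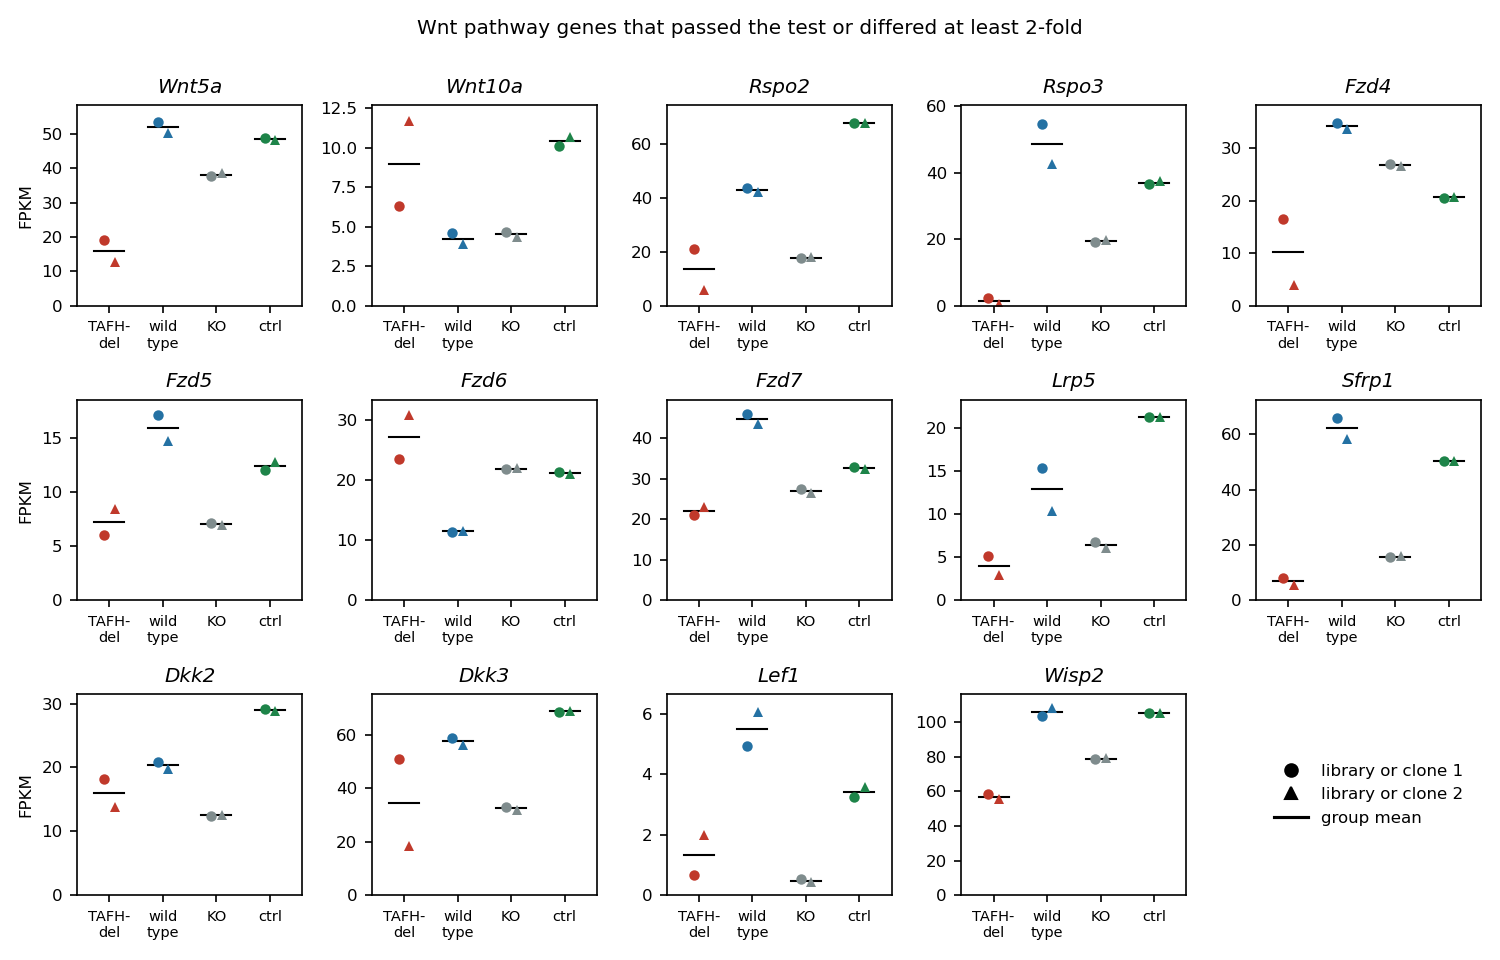
FPKM in each library for the 14 Wnt pathway genes named with values in every library, 1 panel per gene, with groups from left to right and the mean of each group as a line. Both TAFH-deleted clones are below every other library in Rspo3, Sfrp1, Wnt5a, Wisp2, Fzd7, Fzd4 and Lrp5, and both wild-type rescue clones are in Fzd6.

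In the 3 comparisons that involve the knockout, none of the 38 genes was called by limma, and none of all genes tested was (0.0% in each). These fits rest on few degrees of freedom: an unadjusted p under 0.05 was reached by 10 of the 38 in knockout against control (9.21% of all genes), by 9 in wild-type rescue clones against knockout (13.3% of all genes) and by 5 in TAFH-deleted clones against knockout (6.56% of all genes). Calls were made in all 3 comparisons, over all genes too, when either TAFH-deleted clone was left out. In TAFH-deleted clones against knockout, 16 of the 38 were called without clone 1 (33.4% of all genes) and 6 without clone 2 (3.81% of all genes). In wild-type rescue clones against knockout, 18 were called in either case (26.7% of all genes without clone 1 and 26.6% without clone 2). In knockout against control, 17 were called without clone 1 (22.6% of all genes) and 18 without clone 2 (22.1% of all genes).

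At least 2-fold lower in knockout than in control were 10 of the 38 (26.3%, against 5.76% of all genes): Wnt10a, Sfrp1, Dkk2, Dkk3, Rspo1, Rspo2, Lrp5, Axin2, Tcf7 and Lef1. Among these, Tcf7 was tested only because of its level in the controls. None was 2-fold higher, against 0.798% of all genes, and the median log2 difference was -0.27 against -0.03 over all genes (-0.12 against 0.03 after quantile scaling). At least 2-fold higher in wild-type rescue clones than in knockout were 5 (13.2%, against 2.85% of all genes): Fzd5, Sfrp1, Rspo2, Rspo3 and Lef1. None was 2-fold lower, against 1.1% of all genes, and the median was 0.19 against -0.04. At least 2-fold lower in TAFH-deleted clones than in knockout were 6 (15.8%, against 2.94% of all genes): Wnt5a, Wnt11, Fzd4, Sfrp1, Rspo3 and Ror1. None was 2-fold higher, against 0.715% of all genes, and the median was -0.17 against 0.03, with -0.08 without TAFH-deleted clone 2 and -0.25 without clone 1. Libraries did not overlap in 24 genes that were lower and 14 that were higher in knockout than in control, against 49.6% and 40.3% of all genes. In wild-type rescue clones against knockout they did not overlap in 11 lower and 21 higher genes (45.2% and 36.4% of all genes), and in TAFH-deleted clones against knockout in 17 lower and 9 higher genes (23.5% and 31.4% of all genes).

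**Figure D4:**
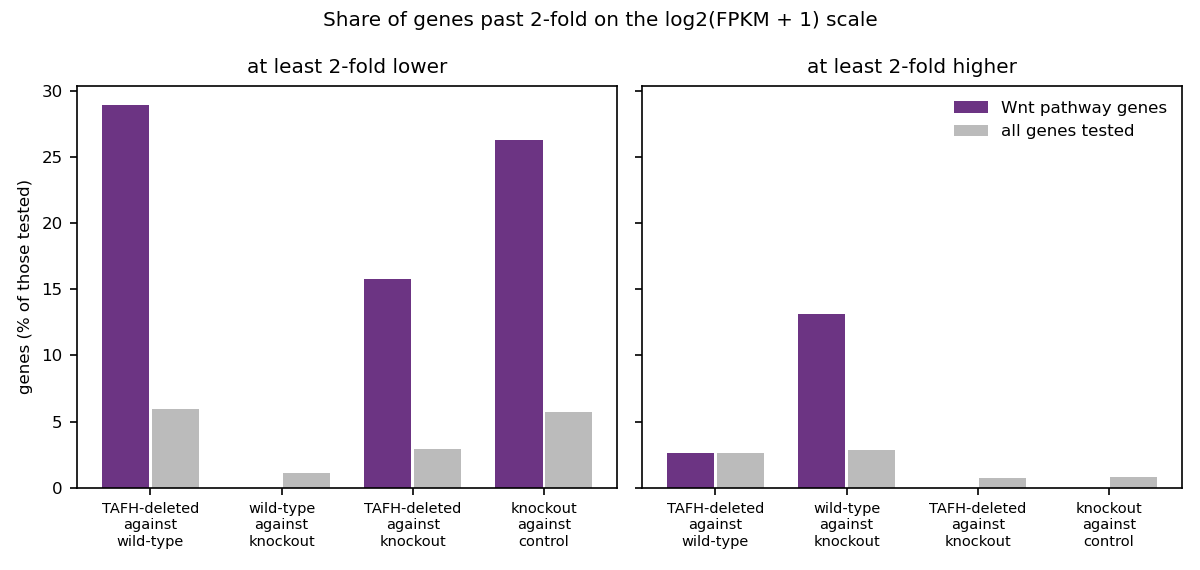
Percent of the 38 tested Wnt pathway genes, and of all 12025 genes tested, that were at least 2-fold higher or lower in each of the 4 comparisons. The share of Wnt pathway genes 2-fold lower is 28.9% in TAFH-deleted against wild-type rescue clones and 26.3% in knockout against control, and 5.94% and 5.76% of all genes.

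The spread between the 2 TAFH-deleted clones was wide for these genes. Between clone 1 and clone 2 the SD of log2 differences was 0.680 over the 38 and 0.575 over all genes tested, and between the wild-type rescue clones it was 0.276 and 0.203. At least 2-fold apart between TAFH-deleted clones were 5 of the 38 (13.2%, against 7.68% of all genes), all higher in clone 1: Fzd4, Sfrp2, Dkk3, Rspo2 and Rspo3. In wild-type rescue clones only Wnt11 was, at 5.62 and 1.92 FPKM. Taken singly against the mean of the wild-type rescue clones, TAFH-deleted clone 1 had 12 genes at least 2-fold lower and 0 higher, against 5.37% and 1.77% of all genes. Clone 2 had 11 lower and 2 higher, against 8.17% and 5.41% of all genes, so its count of higher genes was close to that of all genes. In both clones alike, 23 genes were lower, 7 were higher and 8 lay on opposite sides. Wnt5a, Fzd4, Sfrp1, Rspo3, Lrp5, Axin2, Lef1 and Ror1 were at least 2-fold lower in each clone. Agreement between the clones was not counted over all genes, so these counts are no result about Wnt pathway genes.

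**Figure D5:**
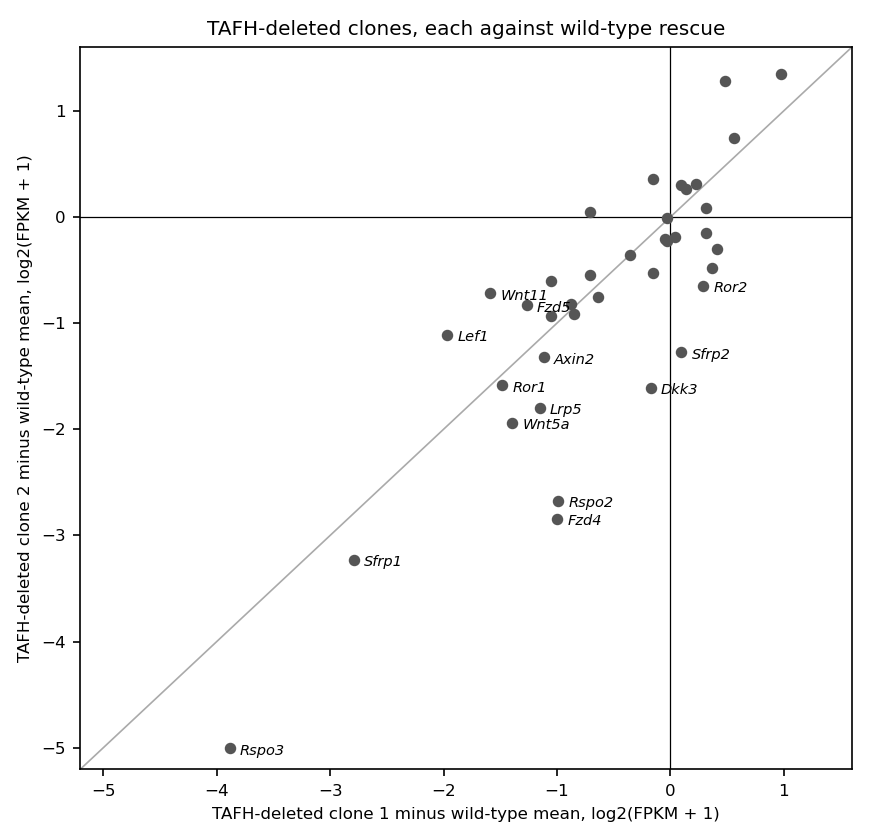
Difference of each TAFH-deleted clone from the mean of the wild-type rescue clones on the log2(FPKM + 1) scale, clone 1 on the horizontal and clone 2 on the vertical axis, 1 point per tested Wnt pathway gene. Of the 38 points, 23 lie where both clones are lower, with Rspo3 and Sfrp1 farthest out. The same count was not made over all genes.

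Further genes of the pathway were counted in the same way. Between the rescue forms, 1.69% of all genes tested were called lower and 0.931% higher, with a median log2 difference of 0.06. The calls in each list below are few and are not read as a result about that list. Of 30 other Wnt ligands, receptors and extracellular modulators 9 were tested, and 2 were called lower in TAFH-deleted than in wild-type rescue clones, with a median log2 difference of -0.08. Igfbp4, a secreted protein that binds insulin-like growth factors and inhibits Wnt signalling, was at 36.0 and 38.3 FPKM in TAFH-deleted clones, 95.5 and 90.9 FPKM in wild-type rescue clones, 53.9 and 53.9 FPKM in knockout and 95.2 and 94.9 FPKM in control libraries. Its log2 difference between the rescue forms was -1.31 ± 0.07 (adjusted p = 0.0347, limma). Bambi, a decoy receptor of the TGF-beta family, was at 0.0870 and 0.0892 FPKM in TAFH-deleted and 2.11 and 1.59 FPKM in wild-type rescue clones (log2 difference -1.38 ± 0.17, adjusted p = 0.0496, limma). Of 53 genes of Wnt secretion and intracellular transduction 47 were tested and 2 were called lower, with a median of -0.01. They were the Dishevelled-binding gene Dact1 (log2 difference -1.77 ± 0.19, adjusted p = 0.0443, limma) and the formin Daam1 (-1.04 ± 0.12, adjusted p = 0.0480, limma). Of 30 genes known as Wnt targets in other cells 21 were tested, with a median of -0.01. The mitotic gene Birc5 rose in TAFH-deleted against wild-type rescue clones (log2 difference 1.22 ± 0.10, adjusted p = 0.0389, limma), and the ligand Bmp4 fell (-1.11 ± 0.14, adjusted p = 0.0497, limma). No gene of these lists was called in the other comparisons. In knockout against control the difference farthest from 0 was that of Gpc6, a cell-surface glypican, listed at 0.0103 and 0 FPKM in knockout against 11.9 and 11.4 FPKM in control libraries (log2 difference -3.65 ± 0.19, adjusted p = 0.128, limma). Like Tcf7, Gpc6 passed the filter only through the control libraries, so that it was lower in knockout was fixed in advance. The next difference was that of Notum, which encodes an enzyme that inactivates Wnts, at 4.69 and 4.69 FPKM in knockout against 29.2 and 29.6 FPKM in control libraries (log2 difference -2.42 ± 0.59, adjusted p = 0.408, limma).

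In the authors' deposited table, which gives Cuffdiff calls per transcript, 49 transcripts of these genes were tested in knockout against control, with 26 called lower and 12 higher, or 53.1% and 24.5%, against 31.1% and 22.7% of all transcripts tested there. For wild-type rescue against knockout the authors' deposited table called 17 of 46 transcripts higher and 5 lower, or 37.0% and 10.9%, against 14.1% and 11.7% of all. For TAFH-deleted rescue against knockout the authors' deposited table called 1 of 46, against 0.681% of all transcripts called lower and 0.277% called higher, and that one was Rspo3, called lower with q = 0.000254. How Cuffdiff treated the libraries of a pair is not given in the sources used here.

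For abundant genes the recovered fragments reached a large part of the positions at which a read can start, counted on both strands. That part exceeded 50% in at least 1 library for 6 genes and 20% for 20 genes. It was 70.1% to 74.0% for Ctnnb1 across libraries, 34.0% to 88.2% for Sfrp2, 36.8% to 80.9% for Wisp2 and 4.44% to 53.7% for Sfrp1. For Ctnnb1 the fragments were nearly equal, at 5359 and 5180 in TAFH-deleted clones, 5080 and 5181 in wild-type rescue clones, 5204 and 5237 in knockout and 5170 and 5230 in control libraries. Its FPKM was higher in the libraries with lower implied totals. Sfrp2 had fewer fragments in knockout (3219 and 3199) than in control libraries (3352 and 3350). The FPKM of Sfrp2 was nevertheless higher in knockout, at 121 and 120, than in control, at 108 and 108. Wisp2 was lower in knockout than in control in both fragments and FPKM. Whether library totals shifted the levels of these and other abundant genes was not tested.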

How the data were processed

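mRNA of 8 fibroblast libraries was sequenced on an Illumina protocol, per the labels' protocols. Per the submitters' processing notes, CASAVA 1.8, TopHat, Cufflinks and Cuffdiff were used with mm9; other versions, masking and strand use are not given in the sources used here, so reads of a gene and an antisense partner could not be told apart. The authors deposited FPKM for 30028 transcripts, transcript lengths, and, per the file headers, p-values and q-values of 3 comparisons. Coordinates are mm9, counted from 1.

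FPKM of a gene's transcripts were summed, and 47 symbols that had become dates were restored. Low FPKM were whole multiples of 1 fragment in 96.0% to 97.4% of values (tolerance 0.05), which gave library totals and fragments. At a length of 2 kilobases 1 fragment is worth 0.0322 to 0.0390 FPKM. Chi-square per gene between libraries of a pair was 0.775 for control and 0.610 for knockout, and 1.64 for wild-type and 2.38 for TAFH-deleted clones. Control and knockout pairs were therefore averaged.

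limma-trend (limma 3.58.1, R 4.3.3) was fitted to log2(FPKM + 1) with all 4 groups, 6 samples, 2 residual and 2.15 prior degrees of freedom. Genes needed 1 FPKM in 2 libraries and a transcript of 300 bases (184 short genes left out), which gave 12025. Tests were two-sided, adjusted by Benjamini-Hochberg at 0.05 over 4 comparisons, each on its own, and the script was tested on simulated data. Values in every library are given for genes called, or 2-fold different with a group mean of 5 FPKM (14 genes), other genes by group values or ranges, and up to 4 genes of each further list. The genes, lists and tests were chosen with earlier results of these data known. Alternatives were another pseudocount, no filter on low values, short genes kept, 8 libraries as samples with and without a replicate block, quantile scaling, own groups only, the top transcript, and each library left out.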

Additional observations from a re-analysis of the deposited data

How the results depend on the processing

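The 46 gene differences recomputed were chosen from these data, as called, at least 2-fold or given in the text. They kept their sign under the alternatives run, which reuse the same libraries, so this is no independent support. Shares below are of all genes called in the same fit. For TAFH-deleted against wild-type rescue clones, 5 genes were called. A pseudocount of 0.1 FPKM gave 3 (1.18%), no filter on low values 0 (0.0%), short transcripts kept 2 (0.868%) and the top transcript of each gene 2 (0.817%), while 8 libraries as samples gave 22 (38%). Quantile scaling gave 4 (1.46%), and a fit with only these groups gave 4 (1.91%). With the replicate number as a block there were 20 (32.6%), and leaving out single libraries gave 0 to 26, with 0 without either wild-type rescue clone. Of the 8 alternatives that kept every library, Sfrp1 and Wisp2 were called in 7 each, Fzd7 in 5, Rspo3 in 4 and Wnt5a in 2. Fits without a control or knockout library could change little here, since each of these pairs counted as 1 sample, and are left out of these counts. Adjusted p over the alternatives (limma) ran between 6.7e-05 and 0.537 for Sfrp1, 0.000186 and 0.538 for Wisp2, 0.000436 and 0.592 for Fzd7, 8.01e-05 and 0.537 for Rspo3, and 0.000107 and 0.561 for Wnt5a.

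For wild-type rescue clones against knockout, 0 genes were called, against 13 with 8 libraries as samples (24.9%), 13 with the replicate block (18.6%), 19 with only these groups in the fit (26.4%) and 0 to 18 without single libraries. For TAFH-deleted clones against knockout the 0 became 7 with 8 libraries as samples (8.93%), 5 with the replicate block (3.83%), and 0 to 16 without single libraries. For knockout against control the 0 became 1 without the filter on low values (1.19%), 16 with 8 libraries as samples (23.8%), 13 with the replicate block (16.8%) and 0 to 18 without single libraries, and own groups only left no residual degrees of freedom. In these comparisons with knockout, the other alternatives gave 0. Medians of the tested genes ran over the alternatives between -0.58 and -0.27 for TAFH-deleted against wild-type rescue clones, 0.14 and 0.28 for wild-type rescue clones against knockout, -0.25 and -0.06 for TAFH-deleted clones against knockout, and -0.30 and -0.12 for knockout against control. Treating 8 libraries as samples counts pairs that differ by less than sampling noise as replicates. In fits without 1 rescue clone, the spread came from the other rescue pair alone. The cause of the other shifts was not tested. A clone left alone in its group is assumed to vary like the other groups. Same-numbered libraries did not deviate together (correlations of -0.0776 to 0.0571), so the numbers do not pair the samples. Genes near 1 FPKM rest on few fragments, and the Rspo3 level in TAFH-deleted clone 2 rests on 19.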
